A study of Caenorhabditis elegans with 2 samples.

Results

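The regions described here are places where UNC-120 ChIP-seq summits lay close together in the Caenorhabditis elegans genome. They were chosen by position from the authors' IDR list (irreproducible discovery rate) in genome build ce11. Such a list is meant to keep regions that rank alike in both replicates, but not every region on it did so here. A summit is a base where the signal of a region peaked, and a region could hold several summits. Summits on the same chromosome were chained when the next lay 2000 bp or less away. Chains of 3 or more summits are called clusters below. This gave 65 clusters with 216 of the 2946 nuclear summits, or 7.33%. The other nuclear summits formed 296 pairs, with 592 summits (20.1%), or stood alone, with 2138 lone summits (72.6%).

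The study has a single group. Its worms were of strain OP659, with the allele unc-119(tm4063) on chromosome III and the transgene insertion wgIs659, which carries UNC-120 with GFP and FLAG at its C terminus. Both libraries came from mixed-stage embryos of mixed sex, taken as whole animals 3 h after bleaching, and chromatin was precipitated through GFP after sonication. The labels call the 2 libraries biological replicates 1 and 2, and no untreated, untagged or input sample was analysed here. The summits therefore sum over every embryonic cell that carried the fusion protein, and the extra copy of unc-120 in the transgene may add signal at that locus, which was not tested. Each region has a score of peak strength from the authors' peak caller, and its scale was not given in the sources used here. Scores below therefore rank regions within a list. Because the files hold no reads, sequencing depth is unknown. Intervals below are Wilson 95% intervals and cover the counting of summits or genes only.

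UNC-120 is a MADS box transcription factor related to the vertebrate serum response factor. It acts in body wall muscle together with HLH-1, the worm relative of MyoD, and factors of this family bind the CArG box, an A/T-rich core between CC and GG. Several summits near a gene can mark separate regulatory elements of that gene, such as a promoter and an intronic enhancer. In C. elegans embryos many transcription factors share highly occupied sites, so a summit by itself names no site of direct contact.

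The CArG box was the sequence of most direct interest, and 5 of the 216 clustered summits had it within 100 bp (2.31%, 0.993 to 5.30), beside 1.46% of all nuclear summits and 0.876% of windows of the same length in the promoters of all protein-coding genes. All 5 sites are shown, each with 10 reference bases on either side and the box in capitals, on the plus strand of WBcel235 (the ce11 sequence) as held by RefSeq. They lay 30 bp from a summit upstream of the Y-box protein gene cey-1 (chrII:11042109-11042138), 69 bp from the middle summit of the myosin light chain gene mlc-3 (chrIII:5565182-5565211) and 95 bp from a summit upstream of the kinesin heavy chain gene unc-116 (chrIII:8356371-8356400). The last pair lay 31 bp from a promoter summit of the Tousled-like kinase gene tlk-1 (chrIII:9703974-9704003) and 52 bp from one of the reticulon gene ret-1 (chrV:14830826-14830855). Of these, mlc-3 was the only gene on the muscle lists used below.
cey-1: aggtttcaatCCTTTTTTGGttcgaagaac
mlc-3: cttagggataCCTTATAAGGttttaggact
unc-116: gagactcaaaCCAAATATGGtcatcaaatt
tlk-1: tgcgtcctctCCTAATTTGGcataatatct
ret-1: cgagtttgagCCATTTTTGGtaaagaaaat

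The repeat GAGAGAGA was present at 45 of the 216 clustered summits (20.8%), beside 16.3% of all nuclear summits and 2.75% of the promoter windows. The windows shown next cover 201 bases around a summit on the same strand and assembly. They were picked because they hold the repeat or an E-box, at muscle genes, upstream of egl-27 and where the repeat was densest. No summit of the clusters at the muscle genes unc-54, act-3, act-4, mlc-3, dim-1, unc-15 and unc-120 had the repeat within 100 bp. Capitals mark GAGAGAGA on either strand (read as TCTCTCTC when it lies on the minus strand) or the E-box CAGCTG, a site of basic helix-loop-helix factors. Both windows of the intronic part of hlh-1 come first, with the E-box (chrII:4520080-4520280, score 574) and the GA repeat (chrII:4520281-4520481, score 375) in neighbouring windows. The next are the promoter windows of the myosin heavy chain gene myo-3 (chrV:12234671-12234871, score 443), of the type IV collagen gene let-2 (chrX:16389356-16389556, score 511) and of the beta integrin gene pat-3 (chrIII:3914919-3915119, score 470). They are followed by the strongest window of the 8 summits upstream of egl-27 (chrII:6826765-6826965, score 484) and by the window with the most repeat bases, 44, in an intergenic cluster nearest to zip-7 (chrIV:16497981-16498181, score 599).
hlh-1 intron, E-box: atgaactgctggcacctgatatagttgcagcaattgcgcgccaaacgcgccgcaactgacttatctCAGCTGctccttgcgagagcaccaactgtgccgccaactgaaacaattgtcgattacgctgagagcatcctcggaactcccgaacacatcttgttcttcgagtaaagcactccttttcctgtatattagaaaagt
hlh-1 intron, GA repeat: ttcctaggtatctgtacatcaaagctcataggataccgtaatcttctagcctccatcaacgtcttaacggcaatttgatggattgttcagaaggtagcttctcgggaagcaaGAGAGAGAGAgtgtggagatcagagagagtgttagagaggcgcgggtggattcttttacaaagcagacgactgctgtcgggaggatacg
myo-3: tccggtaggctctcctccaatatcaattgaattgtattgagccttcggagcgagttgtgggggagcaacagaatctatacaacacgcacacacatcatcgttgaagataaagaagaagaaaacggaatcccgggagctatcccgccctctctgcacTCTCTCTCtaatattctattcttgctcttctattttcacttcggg
let-2: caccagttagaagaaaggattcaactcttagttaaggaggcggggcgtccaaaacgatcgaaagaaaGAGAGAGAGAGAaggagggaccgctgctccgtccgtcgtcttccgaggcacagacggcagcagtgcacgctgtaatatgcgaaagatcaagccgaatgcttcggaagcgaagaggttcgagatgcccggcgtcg
pat-3: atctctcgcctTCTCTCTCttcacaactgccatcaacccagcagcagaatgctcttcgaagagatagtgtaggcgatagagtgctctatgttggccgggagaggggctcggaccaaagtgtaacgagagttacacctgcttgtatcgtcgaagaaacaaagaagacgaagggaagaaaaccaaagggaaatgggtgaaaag
egl-27 upstream: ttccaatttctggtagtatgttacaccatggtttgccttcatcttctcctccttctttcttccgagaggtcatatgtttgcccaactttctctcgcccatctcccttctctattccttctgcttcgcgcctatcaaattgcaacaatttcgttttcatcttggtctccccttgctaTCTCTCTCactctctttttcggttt
nearest to zip-7: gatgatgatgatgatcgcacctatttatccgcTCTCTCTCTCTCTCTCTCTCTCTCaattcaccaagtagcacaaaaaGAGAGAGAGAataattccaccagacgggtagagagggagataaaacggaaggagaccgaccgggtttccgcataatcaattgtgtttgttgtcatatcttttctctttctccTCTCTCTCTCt

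Most clusters were small. They comprised 48 with 3 summits, 16 with 4 and 1 with 8. From first to last summit they spanned 937 to 6011 bp, with a median of 2023 bp and quartiles of 1643 and 2597 bp. Together they covered 143702 bp, or 0.143% of the nuclear genome. The rule limits these lengths, so they are a description of the chains. For scale, the median distance between neighbouring summits over the whole list was 16150.5 bp, and 447 of 2940 such distances (15.2%) were 2000 bp or less.

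Distances within clusters fell into 2 ranges. Of 151 gaps between neighbouring summits, 44 (29.1%) measured 199 to 215 bp, another 3 measured more than 250 and up to 600 bp, and 104 were longer than 600 bp. The shortest gap anywhere in the list was also 199 bp. A short gap of 250 bp or less occurred in 39 of the 65 clusters, and 45 of the 151 neighbouring regions overlapped or abutted. Some of these neighbours were listed with the same region start and end, as were all summits at mir-52 and the first 2 at hlh-1. Pairs had the same 2 ranges, with 107 of 296 gaps (36.1%) at 250 bp or less. Regions were most often 444 bp wide, the width of 64.8% of lone and 42.6% of clustered regions. When only the strongest summit within each 400 bp was kept, 33 of the 65 loci still held a cluster. The count of clusters therefore depends on whether summits about 200 bp apart are taken as separate, and the files do not tell them apart.

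**Figure D1:**
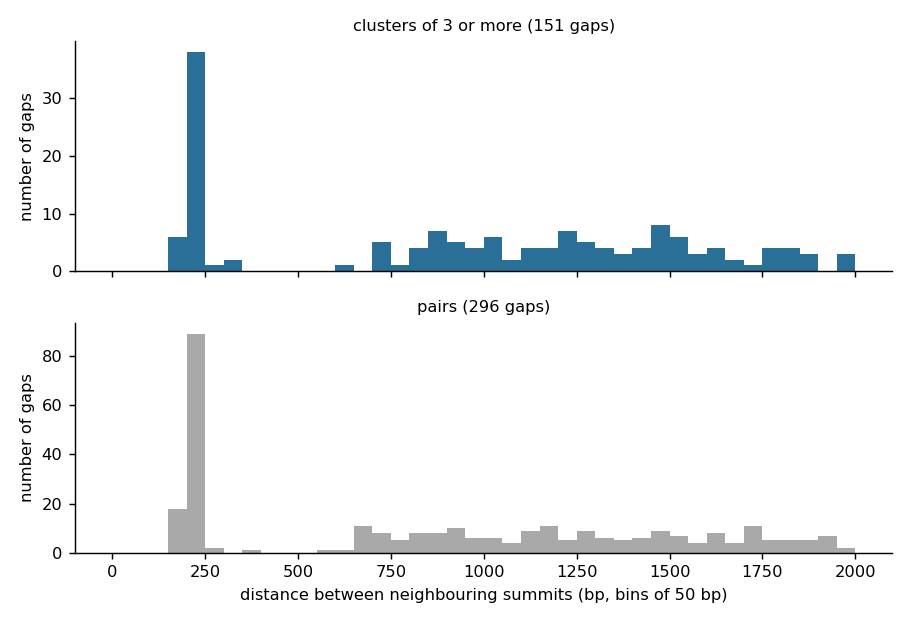
Histogram of the distance in bp between neighbouring summits within the 65 clusters (upper panel, 151 gaps) and within the 296 pairs (lower panel, 296 gaps), in bins of 50 bp; each panel's y axis counts gaps. Both panels show a narrow peak near 200 bp, few gaps from there to 600 bp, and a broad spread up to the 2000 bp limit of the rule.

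The 2000 bp limit cut through a few muscle loci. Of the gaps just inside it, from 1901 to 2000 bp, 12 were found, and 3 clusters rested on such a gap (the clusters at mir-1, chd-7 and far-2). Just outside it, from 2001 to 2100 bp, lay 26 gaps, and allowing them gave 69 clusters. An upstream summit of hlh-1 stopped 2010 bp short of its cluster, and the intronic summit of unc-120, at 8461349 with a score of 941, lay 2036 bp past the last clustered summit of that gene. Similar distances separated a further summit from the clusters at lin-14 (2058 bp), unc-15 (2087 bp) and the egl-27 promoter (2098 bp).

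**Figure D2:**
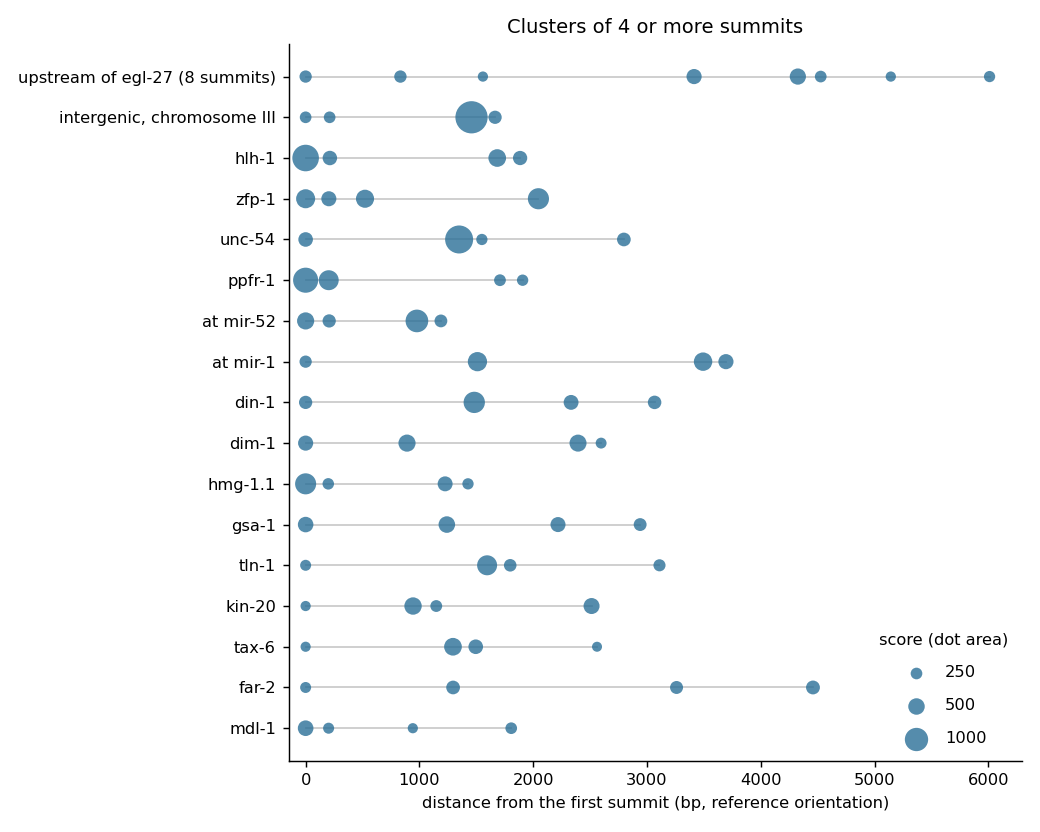
Map of the 17 clusters with 4 or more summits, in order of summit number and then summed score. The x axis is the distance in bp from the first summit in reference orientation, each dot is a summit and dot area is the authors' score; the labels give the gene that was overlapped or lay nearest. Strong summits of hlh-1, unc-54 and the intergenic chromosome III cluster stand beside weaker ones, while the 8 summits upstream of egl-27 are all below a score of 500.

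The cluster with the most summits lay upstream of egl-27, a gene for a chromatin protein of the MTA family that is needed for cell polarity and migration. Its 8 summits ran from 6822539 to 6828550 on chromosome II, 6458 bp or more upstream of the nearest annotated 5' end of egl-27, and they overlapped no protein-coding gene and 7 noncoding RNA genes. In genome order the pooled scores were 279, 281, 193, 423, 484, 253, 194 and 233, so that every summit was weaker than the median of the strongest summits of all clusters, 577. The strongest, 8143 bp upstream, ranked 495 among nuclear regions in the pooled list, 503 in replicate 1 and 551 in replicate 2. Of its summits, 5 had a counterpart among the top 2946 regions of replicate 1 and 7 among those of replicate 2. GAGAGAGA was present in 4 of the 8 windows. A second cluster, of 3 summits with scores of 400, 189 and 441, covered the egl-27 promoter itself.

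The strongest clustered summit lay between genes on chromosome III. Its cluster ran from 13061113 to 13062778, with scores of 251, 251, 1913 and 323, and its strongest summit was 7129 bp upstream of F54F12.1, the nearest protein-coding gene. That summit ranked 2 in the pooled list, 2 in replicate 1 and 3 in replicate 2. The next were in the cluster at W03C9.1 on chromosome II, with a score of 1514 and rank 6, and upstream of the 14-3-3 protein gene ftt-2 on the X chromosome. The ftt-2 summit, 521 bp upstream, had a score of 1485, and its neighbours scored 557 and 296. The W03C9.1 cluster also held a tRNA gene and a snoRNA gene. These 3 clusters each had 1 summit that stood far above the rest, in both replicates as in the pooled list: replicate scores of the top summit were 998 and 914 near F54F12.1, 662 and 870 at W03C9.1 and 684 and 806 at ftt-2.

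The longest spans after that of egl-27 were 4459 bp over far-1 and far-2, which encode fatty acid and retinol binding proteins, and mrpl-44, a mitochondrial ribosomal protein gene. Then came 3778 bp upstream of the chromodomain helicase gene chd-7, 3694 bp at T09B4.3 and mir-1, and 3304 bp at tlk-1. Their strongest summits had scores of 353, 791, 682 and 304, so that those at chd-7 and T09B4.3 were above the median of 577 for all clusters and the others below it. The clusters with 4 summits and the highest summed scores also included the chromatin protein gene zfp-1, with scores of 667, 417, 602 and 822, the phosphatase regulatory subunit gene ppfr-1, with 1158, 733, 255 and 238, all in introns, and the nuclear corepressor gene din-1, with 324, 836, 406 and 336.

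The regulator of muscle fate hlh-1 had a summed score of 2634, the highest of the clusters over muscle list genes. Its 4 summits lay between 4518496 and 4520381 on chromosome II, with pooled scores of 1300, 385, 574 and 375 in that order. The first lay 78 bp upstream of the 5' end and the next 135 bp downstream, and the last 2 lay in an intron. Replicate 1 gave scores of 650, 279, 300 and 175 at the nearest summits, and replicate 2 gave 649, 154, 277 and 199. The promoter summit was the strongest in both replicates, with ranks of 10 and 15, and the intronic summit at 4520180 came second in both. Gaps of 213 and 201 bp separate the summits within each part, so that keeping 1 summit per 400 bp left hlh-1 with too few summits for a cluster.

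At unc-120 the cluster lay wholly upstream of the gene, from 8457268 to 8459313 on chromosome I. Its summits were 2957, 1114 and 912 bp upstream, with pooled scores of 315, 880 and 453. In replicate 1 the scores were 113, 455 and 182, and in replicate 2 they were 195, 432 and 432. The middle summit was the strongest in both replicates, with ranks of 68 and 98, and the equal values in replicate 2 come from a single summit of that replicate within 200 bp of both. No clustered summit overlapped the unc-120 gene, which was counted only through its 5' end.

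Genes of the sarcomere, the contractile unit of muscle, made up most of the muscle genes covered. A gene was counted as overlapped when its annotated span met the stretch from the first to the last summit of a cluster. That was so for 45 of 19973 protein-coding genes (0.225%), and for 8 of the 87 genes on 4 hand-written muscle lists (9.2%, 4.73 to 17.1). Of 25 sarcomere genes, 5 were overlapped (20%, 8.86 to 39.1), namely unc-54, myo-3, mlc-3, act-3 and act-4. Without replicate 1, act-3 was no longer overlapped, and without replicate 2 myo-3 was not, while act-1 and lev-11 were. The body wall myosin heavy chain gene unc-54 had scores of 392, 1443, 233 and 345, with the strongest 133 bp upstream of the gene at rank 8 of the pooled list. In replicate 1 the matched scores were 143, 642, 642 and 166, and in replicate 2 they were 257, 791, 189 and 186. The equal values in replicate 1 come from a single summit of that replicate within 200 bp of both. The same promoter summit led in both replicates, where its ranks were 11 and 7.

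The other sarcomere clusters had 3 summits each. The actin gene act-4 scored 794, 329 and 321, and act-3 scored 253, 669 and 198. The light chain gene mlc-3 scored 787, 285 and 283, with the strongest summit in annotated intron sequence 1103 bp upstream of the nearest 5' end. That cluster also overlapped the gene rpc-2, and the best score in the 5' window of mlc-3 was 285. The myosin heavy chain gene myo-3 scored 417, 443 and 250, from its intron to upstream sequence. The strongest summit of act-4 lay 78 bp upstream of a 5' end and that of act-3 lay 165 bp upstream, while those of myo-3 and mlc-3 were further away, at 428 and 1103 bp. The paramyosin gene unc-15, which the overlap rule missed, had promoter summits with scores of 472 and 287. The actin genes act-1 and act-2, first by name among members not overlapped, each had a summit of a pair in their 5' window, with scores of 743 and 279.

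Genes for attachment of the muscle lattice were covered in 2 of 22 cases (9.09%, 2.53 to 27.8). They were dim-1, an immunoglobulin domain gene needed for stable muscle structure, and let-2, a type IV collagen gene of the basement membrane. The dim-1 cluster scored 421, 540, 533 and 219 and included a promoter and introns, and let-2 scored 187, 208 and 511. Without replicate 1 let-2 was no longer overlapped, and the LIM domain gene lim-9 was overlapped when either replicate was left out. The alpha actinin gene atn-1 had only a summit of a pair, at 230, and alp-1, which encodes an actinin-associated LIM protein, had no summit in its 5' window. Of 22 genes for excitation and calcium handling none was overlapped, which allows a share of up to 14.9%, and 10 (45.5%) had a summit of any kind in their 5' window, beside 9.27% of all protein-coding genes. None was found for acr-16, an acetylcholine receptor gene, or for ccb-1, which encodes a calcium channel subunit. Among 18 muscle regulators, hlh-1 alone was overlapped (5.56%, 0.988 to 25.8), and ceh-24 and ceh-34, both homeobox genes, had no summit.

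Few transcription factor genes were covered. Of 612 gene models on a list made from gene class names, 2 were overlapped (0.327%, 0.0897 to 1.18), an interval that includes the 0.225% of all protein-coding genes. They were hlh-1 and zag-1, a homeobox gene best known from neurons, whose cluster was weak, with scores of 209, 293 and 213. The factor genes aha-1 and ahr-1, first by name among those not overlapped, had a lone summit with a score of 378 and no summit. The count was 5 without replicate 1, with hlh-30, nhr-46 and unc-62 added to those 2, and 3 without replicate 2, namely hlh-1, lin-14 and nhr-3. The list follows names, so it leaves out some known factors: mdl-1, a Mad-like basic helix-loop-helix gene, with scores of 450, 225, 191 and 250, and pat-9, a zinc finger gene needed in body wall muscle, with 802, 295 and 372. Both were chosen after their values were seen.

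A second rule gave a gene each summit from 1000 bp upstream to 500 bp downstream of its annotated 5' ends. By it 58 genes (0.29% of all) had a clustered summit, of which 33 were also overlapped. Muscle genes then numbered 11 of 87 (12.6%, 7.21 to 21.2), with unc-15, pat-3 and unc-120 added, and transcription factor genes 4 of 612 (0.654%), with lin-14 and unc-120 added. The heterochronic gene lin-14 scored 409, 235 and 687. The integrin gene pat-3 scored 470, 239 and 337, with its own promoter summit the strongest. Counted from the side of the genes, 11 of the 58 (19%, 10.9 to 30.9) were on a muscle list, against 12 of 230 genes with a summit of a pair (5.22%, 3.01 to 8.90) and 26 of 1575 genes with a lone summit (1.65%, 1.13 to 2.41), where 0.436% of all genes are on these lists. The transcription factor share was 6.90% (2.71 to 16.4) of the genes at clusters, 3.91% at pairs and 3.37% (2.58 to 4.38) at lone summits, beside 3.06% of all genes.

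Gene length moved with these shares. The median length was 2027 bp for all protein-coding genes, 6059 bp for genes overlapped by clusters, 3938.5 bp for genes given a clustered summit and 2832 bp for genes given a lone summit. It was 5239 bp for the muscle lists and 2652 bp for the transcription factor list. The part of gene length in the muscle share was not tested. A gene with summits of different classes in its window counts in each class.

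Not every cluster covered a gene. A protein-coding gene was overlapped by 38 clusters (32 over 1 gene, 5 over 2 and 1 over 3) and by none of the other 27. Of all 65, 48 had a gene by the 5' end rule, and 11 had none by either rule. Micro RNA genes were overlapped by 4 clusters, and no share over all micro RNA genes was computed to set beside this count. The cluster at T09B4.3 held mir-1, the muscle micro RNA conserved across animals, and scored 277, 682, 626 and 422. The cluster at mir-52 on chromosome IV, between protein-coding genes, scored 541, 323, 946 and 302, and its summits were all listed within a single region. The others held mir-67, and mir-86 with mir-8211. A tRNA, snoRNA or snRNA gene lay within 200 bp of 6 clustered summits (2.78%), in 4 clusters, against 9.29% of summits in pairs and 11.0% of lone summits.

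Clusters also lay at genes outside the muscle and factor lists, and those named here were picked with their values in view. The talin gene tln-1, which links integrin to actin, had 4 upstream summits scoring 223, 736, 291 and 270. The calcineurin gene tax-6 scored 190, 577, 393 and 185, and the casein kinase gene kin-20 scored 192, 556, 258 and 472. The stimulatory G protein gene gsa-1 had 4 summits of similar strength, at 444, 505, 416 and 305.

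Scores were not even within a cluster. The ratio of the highest to the lowest score had a median of 2.43 and ran from 1.03 to 7.63. The strongest summit stood inside the chain in 33 clusters and at an end in 32, and it was the middle of 22 of the 48 chains with 3 summits. In 30 clusters a summit was among the strongest 10% of the list, at rank 294 or better, and in 5 clusters every summit was below the list median of 293. The weakest of these was at eat-17, where scores were 197, 200.4 and 195, close to the lowest score in the list, 185. Both counts depend on each cluster having 3 or more summits. No count from the number of summits alone or for pairs was computed beside them.

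Against lone summits, clustered summits as a whole scored slightly higher. The median was 328 for clustered summits (quartiles 236 and 461), 306 for summits in pairs and 288 for lone summits (226 and 400), a ratio of clustered to lone of 1.14. The same summits, matched to each replicate's own list, gave 161 against 139 in replicate 1, a ratio of 1.16, and 181 against 155 in replicate 2, a ratio of 1.17. The quartile ranges overlapped widely in each list. A replicate summit matched by several clustered neighbours counts for each of them, which can raise these clustered medians. With chains made in a replicate's own list, the ratio was 1.13 in replicate 1 and 1.11 in replicate 2. Keeping 1 summit per 400 bp of the pooled list gave 1.05. With chains remade among the 1473 regions with the highest scores, a choice made by score, 20 clusters were left and the ratio was 0.998, within the SD of 0.0118 between replicates of no difference. The highest score of all, 2614, belonged to a lone summit.

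The summits of a cluster differed by their place in it. The strongest summit of each cluster had a median of 577 (441 to 787), 2.00 times that of lone summits, and the remaining 151 clustered summits had a median of 270 (222 to 376), 0.936 times. In replicate 1 these ratios were 2.02 and 0.964, and in replicate 2 they were 1.82 and 0.942. The remaining summits include some that took the replicate score of a stronger neighbour. Pairs lay in between, at 433 for the stronger summit and 237 for the weaker. The strongest of 3 or more values is chosen by its score and is higher by that choice, so these values describe the clusters and are not a comparison with lone summits.

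**Figure D3:**
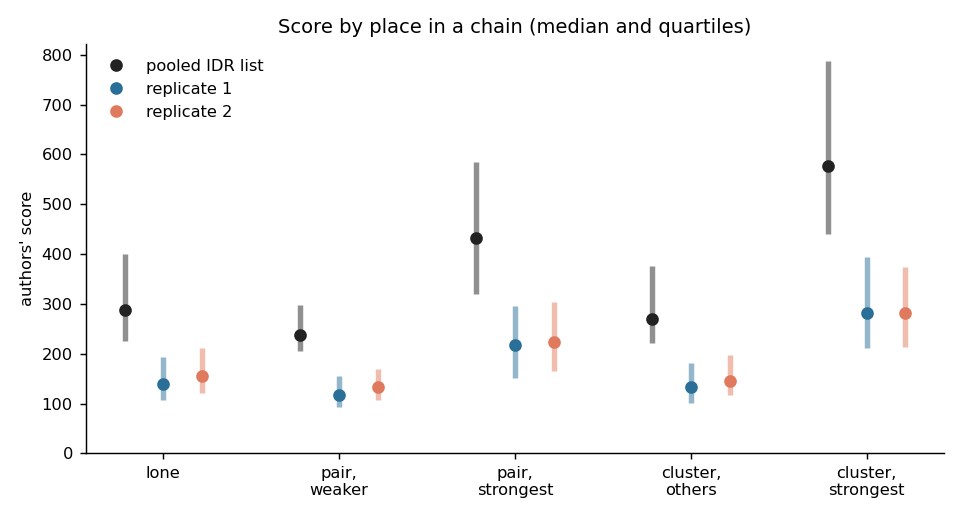
Median (dot) and quartiles (bar) of the authors' score for lone summits, the weaker and stronger summit of each pair, and the other and strongest summits of each cluster, in the pooled IDR list and in the ranked list of each replicate. The order of the 5 classes is the same in all 3 lists, from the weaker summits of pairs to the strongest summits of clusters; scores are on each list's own scale and are not compared between lists.

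The replicates recovered clustered summits about as often as lone ones. A summit was counted as recovered when 1 of the top 2946 nuclear regions of the replicate had its summit within 200 bp. That held for 185 of 216 clustered summits in replicate 1 (85.6%, 80.3 to 89.7) and 191 in replicate 2 (88.4%, 83.5 to 92.0), and for 87.7% and 88.9% of lone summits. Both replicates recovered 162 clustered summits (75%), against 77.7% of lone summits. The IDR list was called on the pooled replicates, so these shares are partly built in. The median rank of clustered summits was 1173.5 in replicate 1 and 1164 in replicate 2, against 1539.5 and 1541 for lone summits. A replicate summit matched by several neighbours counts for each of them, which can improve the clustered ranks. Ranks could differ widely between replicates, as for the eat-17 summit at 16400910, at 1389 in replicate 1 and 12432 in replicate 2.

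Recovery was also counted for whole clusters, which needs 3 or more summits to match and so gives lower counts by construction. Every summit of a cluster was recovered in replicate 1 for 39 clusters, in replicate 2 for 43 and in both for 27. Neighbouring summits can match the same replicate summit, and 3 or more different replicate summits were matched in 28 clusters in both replicates. When the rule was applied to each replicate's own top 2946 regions, replicate 1 gave 69 clusters with 232 summits and replicate 2 gave 64 with 213. Of the 65 clusters of the pooled list, 46 overlapped a cluster of replicate 1, 45 a cluster of replicate 2, 33 a cluster of both and 7 a cluster of neither. The strongest summit lay within 250 bp in both replicates for 53 of the 65 clusters. That needs a single match, and 250 bp is wider than the short gaps of about 200 bp. The count is therefore not comparable with those for whole clusters.

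**Figure D4:**
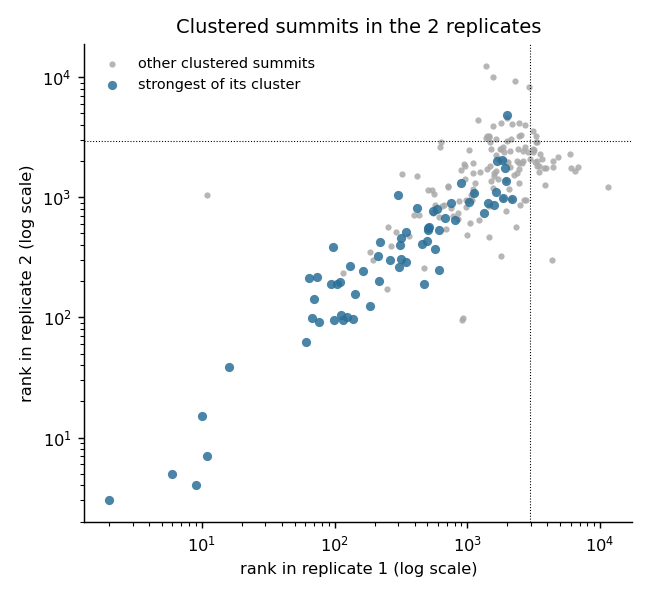
Rank of each clustered summit in the ranked list of replicate 1 (x axis, log scale) and replicate 2 (y axis, log scale), with the strongest summit of each cluster in blue and the others in grey; summits without a match in a list are left out. Dotted lines mark rank 2946, and most strongest summits lie inside both lines, while the weaker summits gather around them.

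Clustered summits were less often in promoters than lone summits. Promoters were the 1000 bp before an annotated 5' end, and 33.3% of clustered summits (27.4 to 39.9) were in them, against 43.1% of summits in pairs and 54.2% of lone summits (52.1 to 56.3). Introns held 23.6% of clustered summits (18.4 to 29.7) and 16% of lone ones (14.5 to 17.7). Sequence outside annotated genes and promoters held 32.4% (26.5 to 38.9) and 22.2% (20.5 to 24.0). Summits of a cluster share their locus and are not independent. When only the strongest of each cluster was counted, 40% (29.0 to 52.1) were in promoters, 18.5% (10.9 to 29.6) in introns and 29.2% (19.6 to 41.2) outside both genes and promoters. In that count the intron and intergenic intervals include the lone shares, and the promoter interval reaches the lower end of the lone interval. In all, 131 clustered summits (60.6%) and 1495 lone summits (69.9%) lay outside protein-coding gene bodies, promoter summits included, and the stretch between the flanking genes had a median length of 6028 bp and 2603 bp, respectively. Its part in the promoter share was not tested.

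Summits of the same cluster often lay in different kinds of sequence. In 52 of 65 clusters, summits fell into 2 or more location classes. A promoter summit and an intron summit occurred together in 19, as at hlh-1, unc-54, myo-3 and act-4. Several summits can fall into different classes through the class shares alone. No count from those shares or for pairs was computed, so whether clusters join classes more often was not tested. A promoter summit was present in 45 clusters and absent from 20. Only 3 clusters lay in promoters alone and 4 in introns alone, ppfr-1 among the latter. In 11, every summit lay outside promoters and protein-coding genes, though some of these clusters had summits in noncoding genes, as at chd-7 and mir-52.

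**Figure D5:**
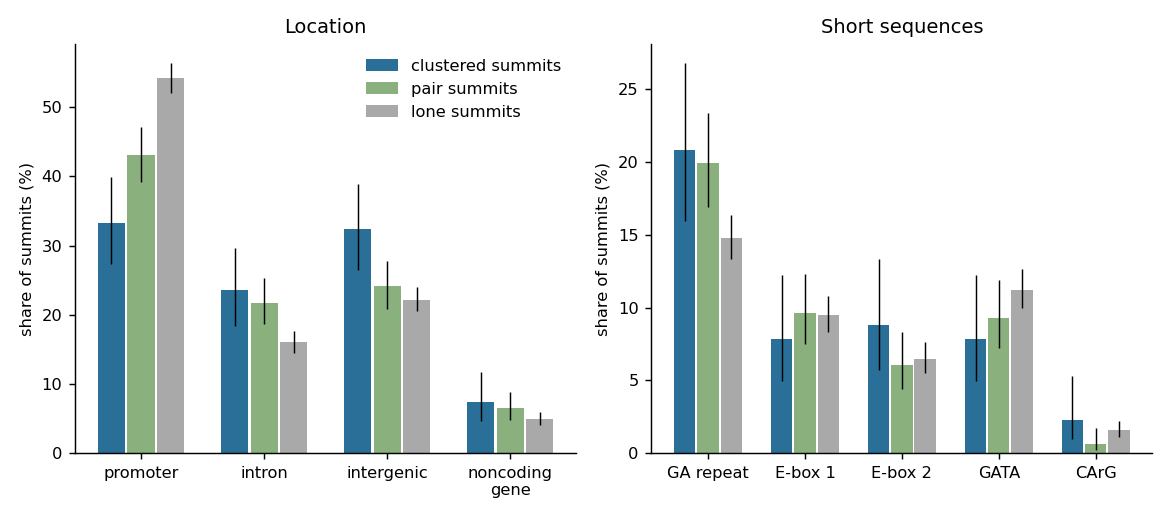
Share of summits (%) by location (left) and with a short sequence within 100 bp (right) for clustered, pair and lone summits; coding exons and UTRs are not drawn, and error bars are Wilson 95% intervals, which treat summits as independent. GA repeat is GAGAGAGA, E-box 1 is CAGCTG, E-box 2 is CACCTG and GATA is TGATAA. The clustered and lone intervals drawn are apart for promoters, introns and intergenic sequence and overlap for the 5 short sequences. With only the strongest summit of each cluster, which is not drawn, they overlap for those locations too.

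Short sequences were searched on both strands within 100 bp of each summit, and CAGCTG reads the same on both strands. GAGAGAGA was present at 20.8% of clustered summits (16 to 26.7), 19.9% of summits in pairs and 14.8% of lone summits (13.3 to 16.3), beside 2.75% of windows of the same length in the promoters of all protein-coding genes. Counted once per locus, 32 of 65 clusters (49.2%) and 101 of 296 pairs (34.1%) had it at 1 summit or more, and clusters have more summits in which it can occur. In 10 clusters it was at 2 or more summits.

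CAGCTG was present at 7.87% of clustered (4.97 to 12.2) and 9.49% of lone summits, and 3.45% of promoters. CACCTG, another E-box, was present at 8.80% (5.70 to 13.3) and 6.50%, and 5.84% of promoters. The GATA site TGATAA was present at 7.87% and 11.2%, and 22.8% of promoters. The CArG box was present at 2.31% of clustered summits, 0.676% of summits in pairs (0.263 to 1.72) and 1.59% of lone summits (1.14 to 2.21). Counted once per locus, CACCTG was at 17 of 65 clusters (26.2%, 17 to 38) and 35 of 296 pairs (11.8%, 8.63 to 16), CAGCTG at 24.6% and 17.9%, TGATAA at 21.5% and 17.2%, and the CArG box at 5 clusters (7.69%, 3.33 to 16.8) and 4 pairs (1.35%, 0.527 to 3.42). Here too, clusters have more summits than pairs in which a sequence can occur. No cluster had a CArG box at more than 1 summit. Median GC content was 46.8% at clustered and 45.3% at lone summits, 50.7% at the strongest summit of each cluster and 32.8% in promoters, and the part of base composition in these shares was not tested.

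Clusters were found on every nuclear chromosome. Chromosome III held 17 of 65 (26.2%, 17 to 38), where it has 16.4% of all summits and 13.7% of the sequence. The X chromosome held 14 (21.5%), close to its 22.6% of all summits, and chromosome I held 13. Chromosome II held 9, and chromosomes IV and V held 6 each, although chromosome V has 20.9% of the sequence and 13.3% of all summits. With so few clusters per chromosome, the interval for chromosome III includes values little above its share of summits.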

How the data were processed

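UNC-120 ChIP-seq was measured in 2 biological replicates. The deposited files are narrowPeak lists made by the authors in ce10 and ce11: a ranked list for each replicate and for both pooled, and the IDR list. Column 7 is the score the authors' peak caller gave each region, and column 10 is the summit position. The sources used here name no aligner or peak caller. Without reads in any list, depth is unknown.

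Summits were chained within 2000 bp and set against Ensembl release 115 genes, with sequence from the RefSeq WBcel235 genome. Chromosome lengths were checked and no coordinates were converted. Mitochondrial regions were set aside. A replicate value is that of its nearest summit within 200 bp. Location classes were given in a fixed order, 1 per summit. Python 3.11.15 with pandas 2.3.3, numpy 2.4.6, scipy 1.17.1 and matplotlib 3.10.9 was used, and chaining was tested on simulated positions.

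Clusters come from summit positions of a single group, so no test was run and shares carry Wilson 95% intervals. The members, gene lists and windows were chosen with earlier results of these data known. Muscle lists were written by hand from textbook knowledge, and transcription factors were taken by gene class name. Named genes are those at the 10 clusters with most summits, the 5 longest and the 5 with the highest score, hlh-1 and unc-120, and up to 6 overlapped and 2 other members of each list. Values of all other genes were seen before they were chosen. Alternatives changed the chaining distance, the summits or list used and the rule that ties genes to clusters.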

Additional observations from a re-analysis of the deposited data

Results flagged for a closer look

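The IDR list in ce11 held 5 mitochondrial summits, which the report leaves out. They formed 1 chain by the same rule, with a highest score of 2227. The ranked list of replicate 1 held 12 mitochondrial summits and that of replicate 2 held 0, a difference that was not tested.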

How the results depend on the processing

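Of 56 recomputed values, 22 stayed close to those reported, 33 moved and 1 reversed. The reversed value was the ratio of clustered to lone median score, 0.998 among the 1473 regions with the highest scores, which lies within the SD of 0.0118 between replicates of no difference and so shows no direction. There, 20 clusters held 4.41% of summits and overlapped 14 genes, 4 muscle genes and 1 transcription factor gene. With gaps up to 1000 bp there were 13 clusters with 1.46% of summits, a median span of 1558 bp, 8 genes, 1 muscle gene, 0 transcription factor genes and a ratio of 1.16. With gaps up to 4000 bp there were 126 clusters with 14.9% of summits, a span of 3686 bp, 118 genes, 16 muscle genes, 11 transcription factor genes and a ratio of 1.12. With 1 summit per 400 bp there were 33 clusters with 3.80% of summits, a span of 2596 bp, 24 genes, 5 muscle genes (act-3, dim-1, mlc-3, myo-3 and unc-54), 0 transcription factor genes and a ratio of 1.05. The ce10 list, with 3664 nuclear summits, gave 101 clusters with 9.33% of summits and a ratio of 1.12. Without summits at small RNA genes the ratio was 1.16, and by 5' ends 4 transcription factor genes had a clustered summit. With a replicate left out, clusters numbered 64 to 69, with 7.23% to 7.88% of summits, spans of 1952.5 to 2090 bp, 45 to 47 genes, 7 to 10 muscle genes, 3 to 5 transcription factor genes and ratios of 1.11 to 1.13. Longer or shorter gaps and fewer summits change the number of chains by construction; the cause of the other changes was not tested. No paired analysis was possible because all samples belong to 1 group. Depth is unknown, which limits every statement on summits below the list, and a median of 1 further summit of the pooled ranked list lay in a cluster's span.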
